A study of Rattus norvegicus with 24 samples.

Results

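The comparison described here sets the quadriceps muscle of rats treated at acupoint set 2 against that of rats treated at acupoint set 1, with 6 libraries in each group. The members were chosen by their treatment label, catgut embedding acupoint 2 (catgut group 2) or catgut embedding acupoint 1 (catgut group 1), and they are 12 of the 24 libraries in the series. The other 12 libraries, 6 from untrained control rats and 6 from treadmill-only rats, are used only to place levels. All rats were Sprague-Dawley animals, assigned in equal numbers of males and females. Each library was made from the poly(A) mRNA of 1 rat. In acupoint catgut embedding, short pieces of absorbable collagen thread are left in the tissue beneath an acupoint with a needle. Catgut group 1 was treated at Qiang Feng behind the shoulder, at Bai Hui over the lower back, and in the thigh at Xie Qi, Qian Shen, Yang Wa and Han Gou, and catgut group 2 at the same points plus Fei Shu, a point between the ribs on each side of the back. Both groups then went through incremental treadmill training and a run to exhaustion. Training, exhaustion, anaesthesia and the shared points were thus common to both, and by design only the added point differed between them. The sequenced libraries also differed in their Y-linked levels, as given below. Neither catgut group was left untrained, and no group was embedded away from an acupoint.

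Skeletal muscle answers hard running with a fast wave of transcription factors such as Fos and Egr1, with heat shock proteins that refold damaged protein, and with a shift from glucose to fatty acids that is governed by PPAR and PGC-1 factors. It also runs a circadian clock, a feedback loop of Arntl, Clock, Per and Cry genes, and it lowers or raises its own mass partly through FoxO and glucocorticoid targets such as the ubiquitin ligase Fbxo32. The question the comparison answers is whether these programmes, or any other transcripts, were at another level when Fei Shu was added.

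Library totals lay between 45945938 and 66224903 counts for catgut group 1 and between 54330979 and 69153343 for catgut group 2, and between 12909 and 14186 genes were above 12 counts in a library. The commonest counts above 0 were 4 and 8, although counts of 1 and 2 also occurred, so that 1 sequenced fragment appears to add about 4 counts in most cases, and 12 counts, taken as 3 fragments, served as the limit of detection. The defining transcripts of muscle were abundant in every library, with skeletal actin (Acta1) at 22811 to 33313 FPKM in catgut group 1 and 22984 to 27950 FPKM in catgut group 2. FPKM is the level scaled to transcript length and to the number of mapped fragments. The summed level of the Y-linked genes was above 1 FPKM in 3 of 6 libraries of the control, treadmill and catgut 1 groups but in 2 of 6 of catgut group 2. These were replicates 4, 5 and 6 in each of the other groups and replicates 1 and 5 in catgut group 2, so catgut group 2 did not show the equal numbers of males and females that were assigned. Whether a library there carries the wrong label was not tested, and every catgut 2 value is subject to that limit. In a comparison of the catgut groups, 0 of the 2 Y-linked genes tested had a p under 0.05 in edgeR's test, and the labels give no sex. Catgut 2 replicate 2 held the highest tendon and nerve marker levels of the 12 libraries, and values without it are given beside the results that it moved most.

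Across all genes, the catgut groups could not be separated. The correlation of log2(FPKM + 1) between libraries, taken over the 14772 genes tested, was 0.977 on average within groups (0.967 to 0.984) and 0.977 between them (0.964 to 0.986). The difference was -0.000604, and 2 libraries of the same group were no more alike than libraries of different groups (exact permutation test over 924 arrangements, two-sided p = 0.541). For 7808 genes (52.9% of those tested), the 95% interval of the fold change lay inside 1.5-fold in both directions, so that for these genes a larger difference is outside the interval. For the other genes the interval was wider than that or reached past it, and the lack of a call does not show that the groups were alike.

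The criterion used asked for mean FPKM in catgut group 2 of more than 1.5 times, or less than 0.667 times, that in catgut group 1, together with p under 0.05 before adjustment in edgeR's quasi-likelihood test, and 184 genes (1.25%) met it. Of these, 133 (0.9%) were higher and 51 (0.345%) lower in catgut group 2, and without catgut 2 replicate 2 these counts were 105 and 70. Most calls were of scarce transcripts, since 113 of the 184 had a mean under 1 FPKM and in 41 every library of 1 group was at or under 12 counts. Only 1 gene had a Benjamini-Hochberg adjusted p under 0.05 in edgeR's test (0.00677% of the genes), while 482 (3.26%) had an unadjusted p under 0.05. The 6 libraries of each group did not overlap for 24 genes (0.162%), with catgut group 2 higher in 8 (0.0542%) and lower in 16 (0.108%). Apart from Knop1, Rhox3 and Ctdspl2, every gene named from here on had an adjusted p of 1 in that test, so the p-values that follow are unadjusted. List counts below are to be read beside these shares and the 52.9% of genes bounded within 1.5-fold. With shares this low, most short lists would hold 0 calls, so 0 calls do not set a list apart from other genes.

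**Figure D1:**
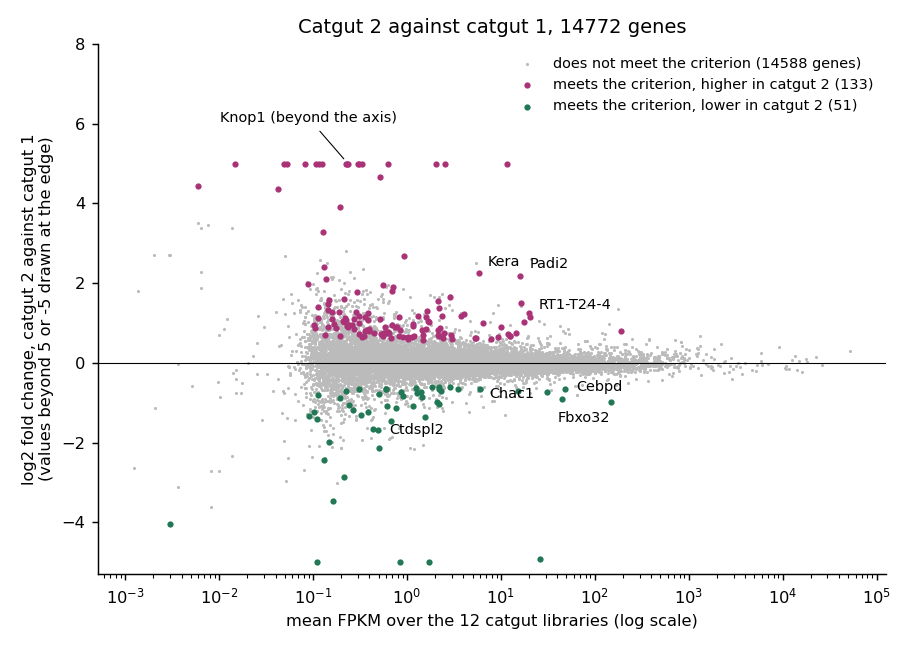
Each point is 1 of the 14772 genes tested, with its mean FPKM over the 12 catgut libraries on the horizontal axis (log scale) and its log2 fold change of catgut group 2 against catgut group 1 on the vertical axis, where values past 5 are drawn at the edge. The 133 genes called higher and the 51 called lower lie mostly at low levels, and few abundant genes such as Fbxo32 and Padi2 stand away from 0.

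The gene past the adjusted threshold was Knop1, which encodes a lysine-rich nucleolar protein, at the locus ENSRNOG00000048270 (chromosome 1, 188368581 to 188373571). It was listed at 0 in all 6 catgut 1 libraries and at 0.328, 0.442 and 0.532 FPKM (lowest, median and highest) in catgut group 2, so the groups did not overlap. Its count was 25 to 44 in catgut group 2, and against the limit of 12 counts per library it was at least 2.57-fold higher there (adjusted p = 0.00776, edgeR's quasi-likelihood test with Benjamini-Hochberg adjustment). The same locus was at 0 in some libraries of the other groups as well, with a range of 0 to 0.717 FPKM in the treadmill group. The table lists a second Knop1 locus, and reads shared by near-identical copies can be counted at either. With the counts of both loci added, an alternative chosen after seeing the data, the level was 0.401, 0.626 and 1.12 FPKM in catgut group 1 and 0.664, 1.35 and 1.51 FPKM in catgut group 2. The groups then overlapped, the log2 fold change was 0.45 (SE 0.305), and the call was lost (unadjusted edgeR p = 0.167, exact permutation p = 0.0498).

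Rhox3, a homeobox gene of the X-linked reproductive cluster, also has 2 listed loci (chromosome X, 124572114 to 124576133 and 123862563 to 123867149). Both were at 0 in all 6 catgut 1 libraries, and in catgut group 2 the first reached 0.259, 0.614 and 0.863 FPKM. The first was at least 1.44-fold higher (adjusted p = 0.0969, edgeR with Benjamini-Hochberg adjustment) and the second at least 1.12-fold higher (unadjusted edgeR p = 0.000976, exact permutation p = 0.0152). The second was at 0 in 1 of 6 catgut 2 libraries. Its means were 0, 0.215, 0.0780 and 0.129 FPKM in the catgut 1, catgut 2, treadmill and control groups. It passed the filter of 0.1 FPKM only through its catgut 2 values, so no support is drawn from its p-values or bound. With the counts of both loci added, again an alternative chosen after seeing the data, the level in catgut group 2 was 0.397 to 1.24 FPKM. The adjusted edgeR p was then 0.0268, so that, unlike Knop1, Rhox3 was called on the sum of its loci. The first locus was also at 0 in 4 of 6 treadmill and 1 of 6 control libraries, with highest values of 0.760 and 0.706 FPKM in those groups. At counts of at most 30 per library, these are differences between a few sequenced fragments and 0.

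Among genes higher in catgut group 2, Gsap (the gamma-secretase activating protein) and Btbd11 (a BTB-domain protein) were the named genes whose groups did not overlap at a level above the limit. Gsap was at 0.571, 0.811 and 1.01 FPKM in catgut group 1 and 1.02, 1.13 and 1.86 FPKM in catgut group 2, a 1.58-fold difference (95% interval 1.21 to 2.06, edgeR p = 0.00271, exact permutation p = 0.00216). Btbd11 was scarcer, at 0.0625 to 0.135 FPKM against 0.169 to 0.298 FPKM, and 1.98-fold higher (edgeR p = 0.0025, exact permutation p = 0.00216). The highest catgut 1 value of Gsap lay just under the lowest catgut 2 value, so the gap was small beside the spread in each group.

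Mrps35, a subunit of the mitochondrial ribosome, was more abundant, at 6.55, 9.25 and 14.0 FPKM in catgut group 1 and 12.8, 15.3 and 19.4 FPKM in catgut group 2. Here 3 catgut 2 libraries lay above every catgut 1 library, and the level was 1.60-fold higher (interval 1.21 to 2.13, edgeR p = 0.00338, exact permutation p = 0.00866). Padi2, an enzyme that converts arginine residues of proteins to citrulline, was at 1.13, 4.51 and 14.5 FPKM against 8.95, 12.9 and 87.7 FPKM. The value of 87.7 FPKM belonged to catgut 2 replicate 2, and the 4.55-fold difference (interval 1.69 to 12.2, edgeR p = 0.00559, exact permutation p = 0.0108) was 2.63-fold without that library. Its p stayed under 0.05 without each of the 12 libraries in turn. RT1-T24-4, of the MHC class I genes that present peptides to T cells, was at 4.82, 12.7 and 19.6 FPKM against 9.97, 32.6 and 41.3 FPKM (2.24-fold, edgeR p = 0.0104, exact permutation p = 0.0325). Genes of this family resemble each other closely, so its reads may be split with its neighbours. Pf4, the platelet chemokine, was at 6.29 FPKM (median) in catgut group 1 and 8.61 FPKM in catgut group 2. It was 1.51-fold higher (edgeR p = 0.0153, exact permutation p = 0.0108), and it lost its p in the fit over all 4 groups. The highest Pf4 value (15.3 FPKM) belonged to catgut 2 replicate 2, and without that library the fitted fold was 1.36, under 1.5.

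The other higher genes fixed by the naming rule were low in level. Nt5dc2, with a nucleotidase domain, was 2.44-fold higher (edgeR p = 0.00131, exact permutation p = 0.00433), Arrb1, an arrestin that scaffolds receptor signalling, 1.94-fold (edgeR p = 0.00365, exact permutation p = 0.00433), and Fam151a 1.79-fold (edgeR p = 0.00378, exact permutation p = 0.00866). Their medians were 0.403, 0.333 and 1.98 FPKM in catgut group 2. Lpal2 was at or under the limit in every catgut 1 library and at least 2.92-fold higher in catgut group 2 (edgeR p = 0.00276, exact permutation p = 0.0152), where it reached 0 to 2.23 FPKM.

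Among the lower genes that the naming rule took, Fbxo32 was abundant, though its medians in both catgut groups lay under those of Cebpd, given below. This muscle ubiquitin ligase, also called atrogin-1, marks proteins for breakdown during wasting (chromosome 7, 98063735 to 98098268). It was at 23.1, 60.1 and 84.7 FPKM in catgut group 1 and 19.0, 26.8 and 47.4 FPKM in catgut group 2. The groups overlapped, with 2 catgut 2 libraries below every catgut 1 library, and the log2 fold change was -0.90 (SE 0.305, edgeR p = 0.011, exact permutation p = 0.0433). Treadmill-only rats had a median of 62.0 FPKM and untrained controls one of 61.2 FPKM, close to that of catgut group 1. Its p stayed under 0.05 without each library in turn and under the other settings tried, while its adjusted p was never under 0.668.

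Ctdspl2, a phosphatase-like gene, had the smallest p of the lower genes, at 0.375, 0.789 and 1.04 FPKM against 0.171, 0.201 and 0.421 FPKM. Of the catgut 2 libraries, 5 lay below every catgut 1 library, and the log2 fold change was -1.68 (SE 0.273, adjusted p = 0.16, edgeR with Benjamini-Hochberg adjustment). Mroh8 was the named lower gene whose groups did not overlap, at 0.218 to 0.528 FPKM against 0.0799 to 0.208 FPKM (edgeR p = 0.00148, exact permutation p = 0.00216). Ccn5, a matricellular protein that restrains cell growth, was at a median of 1.04 FPKM against 0.260 FPKM (log2 fold change -1.46, edgeR p = 0.00588, exact permutation p = 0.0303), and Epop, a partner of Polycomb repressive complexes, at 1.38 against 0.641 FPKM (edgeR p = 0.00689, exact permutation p = 0.00866). Arl11 (a small GTPase), Tpd52 (vesicle traffic), Nxph1 (a neurexin ligand), Ntsr1 (a neurotensin receptor) and Tyro3 (a receptor tyrosine kinase) completed the lower genes, with log2 fold changes of -0.61, -0.69, -1.41, -1.34 and -1.22. Nxph1, Ntsr1 and Tyro3 were under 0.3 FPKM in all 12 libraries.

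Of the abundant lower genes, Chac1, which degrades glutathione and is induced in amino acid stress, was at 18.9, 40.6 and 54.2 FPKM against 15.8, 22.6 and 36.4 FPKM (log2 fold change -0.74, edgeR p = 0.0223, exact permutation p = 0.0303), a call lost without catgut 1 replicate 1 or catgut 1 replicate 4. Mical2, an enzyme that oxidizes actin, was at a median of 17.4 against 12.1 FPKM (edgeR p = 0.0255, exact permutation p = 0.0866), lost without catgut 1 replicate 6 or catgut 2 replicates 1 or 6 and with the Y-linked level as covariate. Angpt2, a ligand of the endothelial receptor Tek, was at 5.38, 7.10 and 9.07 FPKM against 2.26, 4.39 and 7.79 FPKM (edgeR p = 0.033, exact permutation p = 0.0606), lost without any 1 of 5 libraries (catgut 1 replicates 4 and 6, catgut 2 replicates 1, 2 and 6) and with the Y-linked level as covariate. Fold changes of these genes were all between 0.598 and 0.629 of the catgut 1 level.

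**Figure D2:**
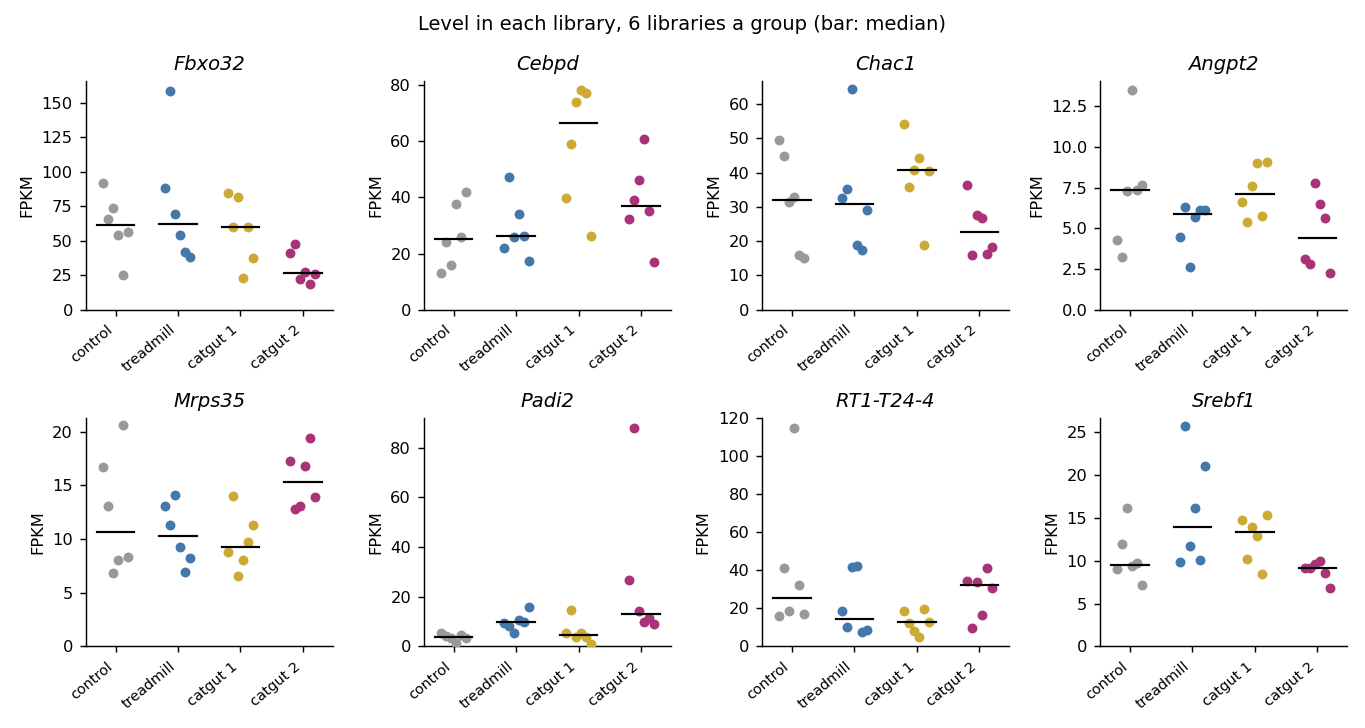
FPKM (vertical axis, from 0) in each of the 24 libraries for 8 genes, with 6 points and a median bar per group. Fbxo32 is lower in catgut group 2, at a median of 26.8 FPKM, than in the 3 other groups, while Cebpd is highest in catgut group 1 at 66.4 FPKM and Padi2 has a single catgut 2 library at 87.7 FPKM.

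The list of glucocorticoid, FoxO and atrophy genes held 24 tested members. By the criterion 2 were lower (Fbxo32 and Cebpd, against 0.345% of all genes) and 0 higher (0.9% of all genes). Of the 24, 22 had a negative and 2 a positive log2 fold change, with a median of -0.16. Over all genes, 7121 fold changes were negative and 7628 positive, and the median was 0.0070. The summed level of the list had medians of 1706 FPKM in catgut group 1 and 1502 FPKM in catgut group 2. Those of the treadmill and control groups were lower, at 1207 and 1335 FPKM. Cebpd, a transcription factor induced by glucocorticoids, was at 26.3, 66.4 and 78.1 FPKM in catgut group 1 and 16.9, 37.0 and 60.6 FPKM in catgut group 2 (log2 fold change -0.65, edgeR p = 0.0416, exact permutation p = 0.121). That call held in 4 of the 12 fits without 1 library. It was lost without catgut 1 replicates 2, 3, 4 or 5 or catgut 2 replicates 1, 2, 5 or 6, and with the Y-linked level as covariate. The treadmill and control medians of Cebpd were 26.1 and 25.1 FPKM, under both catgut medians. The protease Ctsl was lower in catgut group 2 as well without reaching the fold of the criterion (0.85-fold, interval 0.743 to 0.973, edgeR p = 0.0219, exact permutation p = 0.0736), a p lost without catgut 1 replicate 5 or catgut 2 replicates 5 or 6. Trim63, the other muscle ubiquitin ligase of wasting, was at medians of 185 and 157 FPKM (0.88-fold, interval 0.608 to 1.28), so a drop as large as that fitted for Fbxo32 (0.536-fold) was outside its interval. The glucocorticoid targets Fkbp5, Mt2A and Klf15 had log2 fold changes of -0.49, -0.61 and -0.04 and edgeR p-values of 0.318, 0.14 and 0.756. Tsc22d3, another glucocorticoid target of the list, had a positive log2 fold change of 0.12.

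Genes of the acute exercise response did not differ by the criterion. Of the 27 immediate-early genes tested, 0 met the criterion and 0 had a p under 0.05 in edgeR's test (3.26% of all genes had), with a median log2 fold change of 0.11. Fos was at 32.5, 87.6 and 172 FPKM in catgut group 1 and 60.9, 99.5 and 149 FPKM in catgut group 2, a 1.13-fold difference (interval 0.653 to 1.94). Arc, Egr1 and Ccn1, which answer contraction and stretch, were at 1.12, 1.26 and 1.16 times the catgut 1 level, and the intervals of all 3 spanned 1. The intervals were wide here, and only 3 of the 27 lay inside 1.5-fold in both directions. Under DESeq2, both limma fits, the exact permutation test, and without catgut 1 replicates 3 or 6 or catgut 2 replicate 1, 1 member was lower by the criterion, and without catgut 1 replicate 2 it was 1 higher.

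Of the 20 heat shock genes, 0 met the criterion (1.25% of all genes did) and 0 had a p under 0.05 (3.26% of all genes), with a median of -0.09. Hspa1b, the stress-inducible chaperone of the Hsp70 family, was at 127, 493 and 1677 FPKM in catgut group 1 and 185, 430 and 719 FPKM in catgut group 2. Its fold was 0.747 with an interval of 0.344 to 1.62, or 1.13 without catgut 1 replicate 5, and the highest value belonged to that replicate, which also held the highest level of its co-chaperone Dnajb1 (168 FPKM). In the unfolded protein and amino acid stress list, 1 of 16 members was higher and 1 lower. These were Phgdh, the first enzyme of serine synthesis, at medians of 0.256 and 0.437 FPKM (2.11-fold, edgeR p = 0.0214, exact permutation p = 0.039, lost without catgut 2 replicate 2 or 3), and Chac1.

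Of the 14 core loop genes of the circadian clock, 0 met the criterion, 0 had a p under 0.05 and 8 had an interval inside 1.5-fold in both directions. The shares over all genes were 1.25%, 3.26% and 52.9%. Per2, a repressor of the loop, was at 6.69, 8.16 and 13.4 FPKM in catgut group 1 and 6.68, 9.49 and 13.1 FPKM in catgut group 2 (1.09-fold, interval 0.859 to 1.39). In the treadmill group Per2 was at 1.03, 2.15 and 2.99 FPKM. Dbp, a clock-driven transcription factor, was at medians of 99.9 and 111 FPKM in the catgut groups (1.06-fold, interval 0.873 to 1.29) and at 24.1 FPKM in the treadmill group. The summed core loop level had medians of 169 FPKM in catgut group 1, 159 in catgut group 2, 143 in the treadmill and 144 in the control group. For the clock output list the medians were 394, 394, 211 and 338 FPKM in the same order, so the treadmill group was the lowest there. For Arntl, the activator of the loop, the data left more room, with medians of 2.18 and 1.41 FPKM and a 0.668-fold difference (interval 0.407 to 1.1, edgeR p = 0.103, exact permutation p = 0.232). Rora, which activates Arntl, was lower in 5 catgut 2 libraries than in every catgut 1 library (0.694-fold, interval 0.478 to 1.01, edgeR p = 0.053, exact permutation p = 0.0671). Rora had a p under 0.05 without catgut 1 replicate 6 or catgut 2 replicate 3 (log2 fold change -0.74 without the latter), with the Y-linked level as covariate, in DESeq2, with median-ratio scaling and in the fit over all 4 groups, and Arntl without catgut 1 replicates 4 or 6 and with that covariate. The number of core loop genes called was 1, lower, without catgut 1 replicate 4, catgut 1 replicate 6 or catgut 2 replicate 3 and with that covariate. Among the 10 clock output genes, Bhlhe41, a repressor, had a p under 0.05 (log2 fold change -0.45, edgeR p = 0.0141, exact permutation p = 0.0433) at 12.3, 13.4 and 25.2 FPKM against 8.23, 10.8 and 15.2 FPKM, and lost it in the fit over all 4 groups. The time of day of sampling is not given in the labels.

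**Figure D3:**
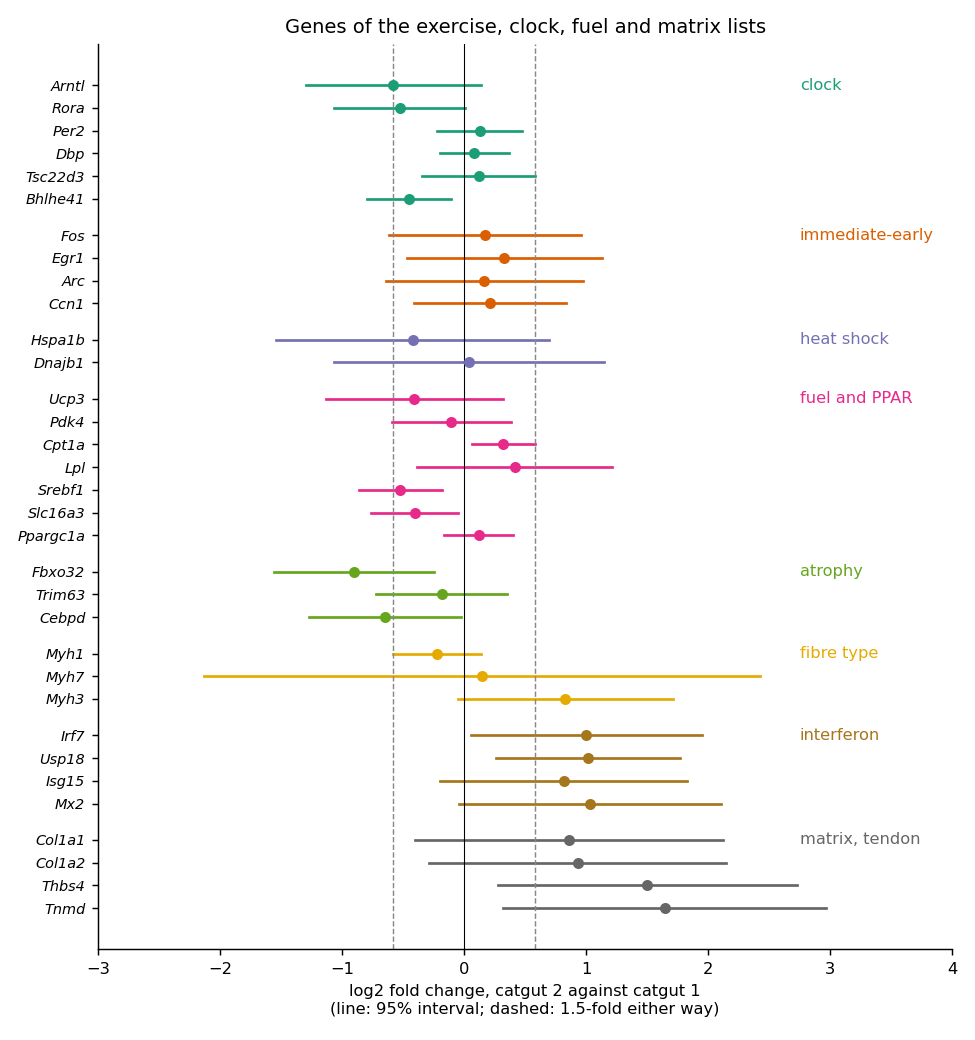
Log2 fold change of catgut group 2 against catgut group 1 (point) with its 95% interval (line) for 33 genes in 8 classes, with dashed lines at 1.5-fold in both directions. Intervals of Per2 and Dbp lie inside the dashed lines, those of Fos, Arc and Hspa1b reach past them on at least 1 side, and that of Myh7 is the widest.

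Lipid and fuel genes were the study's main subject, and the 4 genes it followed did not differ between the catgut groups in edgeR's test. Lpl, the lipase that frees fatty acids from circulating triglyceride, was at 37.0, 61.3 and 144 FPKM in catgut group 1 and 46.0, 115 and 136 FPKM in catgut group 2. The ranges overlapped almost fully, and the 1.33-fold difference had an interval of 0.767 to 2.32 (edgeR p = 0.282, exact permutation p = 0.292). Fabp1, a fatty acid carrier of liver, had 2 to 8 counts per catgut 1 library and 2 to 11 per catgut 2 library, under the limit of detection in all 12 libraries. Slc27a2, a fatty acid transporter, was at a median of 0.0246 FPKM against 0.00941 FPKM, its direction turning with single libraries (edgeR p = 0.851, exact permutation p = 0.87). It was at 0 in 2 of 6 catgut 1 and 3 of 6 catgut 2 libraries. Its interval ran from 0.121 to 5.87-fold, so a large difference in either direction lay inside it. Apoc3, an inhibitor of Lpl made by liver, was at 0 in all 12 catgut libraries but catgut 1 replicate 2, with 4 counts. For Fabp1 and Apoc3 a difference was not detectable at this depth.

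Of the 23 PPAR target and lipid transport genes tested, 0 met the criterion (1.25% of all genes did) and 0 had a p under 0.05 (3.26% of all genes). Their fold changes were positive for 16 and negative for 7, with a median of 0.12. Of the 65 tested genes that the table assigns to the KEGG PPAR signaling pathway, 0 met the criterion and 1 had a p under 0.05. The PGC-1, ERR and PPAR regulators were measured more tightly, and 11 of 15 lay inside 1.5-fold in both directions, among them Ppargc1a, the PGC-1 alpha coactivator, at medians of 2.45 and 2.68 FPKM (1.09-fold, interval 0.893 to 1.32).

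In the list of fatty acid oxidation and fuel switch, 1 of 18 members was higher by the criterion. This was Ucp2, an uncoupling protein (1.85-fold, edgeR p = 0.0367, exact permutation p = 0.173), with a median of 7.06 FPKM against 8.51 FPKM and a highest value of 35.9 FPKM in catgut 2 replicate 2. Its call was lost without that library (1.27-fold), with the Y-linked level as covariate, and also without catgut 1 replicates 2, 4 or 6 or catgut 2 replicate 6, and its exact permutation p was 0.173. Cpt1a, the enzyme that admits fatty acids to mitochondria in liver and other tissues, was 1.25-fold higher (interval 1.05 to 1.49, edgeR p = 0.0178, exact permutation p = 0.0455) at 2.52, 3.43 and 4.18 FPKM against 3.57, 4.21 and 5.31 FPKM, and this held without each library in turn. Ucp3, the muscle uncoupling protein, was at medians of 42.9 and 35.3 FPKM (0.754-fold, interval 0.457 to 1.25), both under the 114 FPKM of the treadmill group. Pdk4, which blocks glucose oxidation, was at 321 and 283 FPKM (0.931-fold, interval 0.663 to 1.31).

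Srebf1, the transcription factor that drives lipogenesis, was lower in catgut group 2, at 8.45, 13.4 and 15.3 FPKM against 6.83, 9.12 and 9.98 FPKM. The 0.696-fold level (interval 0.55 to 0.882, edgeR p = 0.00564, exact permutation p = 0.0238) did not reach the fold of the criterion, and its p stayed under 0.05 in every setting tried. It was the only 1 of 17 lipogenesis and triglyceride genes with a p under 0.05. Of 23 glucose, glycogen and glycolysis genes, 0 met the criterion and 16 were bounded within 1.5-fold, while Ppp1r3c, which targets a phosphatase to glycogen, and the lactate exporter Slc16a3 were lower (0.738-fold, edgeR p = 0.0464, exact permutation p = 0.0671, and 0.756-fold, edgeR p = 0.0287, exact permutation p = 0.0498). The first kept its p in 3 and the second in 7 of the 12 fits without 1 library, the losses spread over both groups.

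Mitochondrial genes lay slightly above 0 without a call. Of 29 nuclear-encoded respiratory chain genes, 28 had a positive fold change with a median of 0.15, 0 met the criterion, 0 had a p under 0.05 and 20 were bounded within 1.5-fold. The citrate cycle list had a median of 0.08 with 0 of 15 called. In the autophagy list 16 of 17 members and in the antioxidant list 16 of 20 were bounded within 1.5-fold, and 0 were called in either. Of 17 calcium release genes 0 met the criterion, with 1 member lower at a p under 0.05 (Jsrp1, 0.836-fold, edgeR p = 0.0471, exact permutation p = 0.0281), which it kept in 3 of the 12 fits without 1 library and lost with the Y-linked level as covariate.

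Fibre type varied more between rats than between groups. The summed level of 6 slow-fibre genes (Myh7, Tnnt1, Tnni1, Tnnc1, Myl2 and Myl3) was 9.82, 1543 and 3271 FPKM in catgut group 1 and 297, 1381 and 4311 FPKM in catgut group 2. The lowest value was that of catgut 1 replicate 6. Myh7, the slow myosin, was at 0.632, 131 and 308 FPKM against 25.5, 110 and 417 FPKM, and its interval ran from 0.228 to 5.38-fold. Of the 23 genes of the fibre type list 0 met the criterion and 0 had a p under 0.05, Myh1, a fast myosin, among them (0.858-fold, interval 0.668 to 1.1). Myh3, the embryonic myosin of regenerating fibres, was at 0.861, 2.63 and 4.13 FPKM against 1.59, 4.52 and 7.33 FPKM (1.78-fold, interval 0.964 to 3.28, edgeR p = 0.063, exact permutation p = 0.0909). Of the satellite cell and myogenic list 1 of 17 was higher, Mymx, a fusion peptide of myoblasts, which was listed at 0 in 5 of 6 catgut 1 libraries and at 0 to 1.01 FPKM in catgut group 2 at no more than 18 counts (edgeR p = 0.0053, exact permutation p = 0.0281).

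Of 7 tendon markers tested, 2 were higher in catgut group 2 by the criterion (0.9% of all genes were). All 7 had a fold change above 0, with a median of 1.43 on the log2 scale, or 0.89 without catgut 2 replicate 2. Tnmd, a membrane protein of tendon cells, was at 0.319, 1.11 and 3.09 FPKM against 0.917, 4.28 and 9.26 FPKM (3.13-fold, interval 1.25 to 7.81, edgeR p = 0.0186, exact permutation p = 0.0801). Thbs4, a thrombospondin of the myotendinous matrix, was at 1.88, 8.36 and 17.6 FPKM against 4.98, 18.9 and 64.0 FPKM (2.83-fold, interval 1.21 to 6.61, edgeR p = 0.0201, exact permutation p = 0.0823), and 1.98-fold higher with its p lost (edgeR p = 0.075) without catgut 2 replicate 2. The summed tendon level was 11.0, 23.5 and 54.3 FPKM in catgut group 1 and 13.9, 52.1 and 165 FPKM in catgut group 2. The groups overlapped, and 3 catgut 2 libraries (replicates 2, 3 and 5) lay above every catgut 1 library. In the treadmill group the sum was 8.53, 30.9 and 51.5 FPKM and in the control group 8.25, 23.5 and 174 FPKM, so the highest control library lay above every catgut 2 library. Scx, the transcription factor that defines the tendon lineage, was at medians of 5.79 and 5.97 FPKM (log2 fold change 0.0023). The number called was 1 without catgut 2 replicate 2 or 3, 5 without catgut 1 replicate 5 and 4 without catgut 2 replicate 6, and 0 by the exact permutation test. In bulk tissue, more cells of a type and more RNA per cell cannot be told apart.

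Kera, a proteoglycan of connective tissue, was higher beside them at 0.365, 2.08 and 3.69 FPKM against 0.407, 4.59 and 27.5 FPKM (4.74-fold, edgeR p = 0.0167), but its exact permutation p was 0.152 and the call was lost without catgut 2 replicate 2 (3.06-fold). Collagen and matrix genes leaned the same way, with 24 of 25 fold changes positive and a median of 0.20 (0.041 without catgut 2 replicate 2), though 0 met the criterion. Col1a1 was at 13.2, 34.6 and 66.5 FPKM against 13.2, 49.2 and 193 FPKM (1.82-fold, interval 0.758 to 4.35, and 1.2-fold without catgut 2 replicate 2), and Col1a2 reached 166 FPKM in catgut 2 replicate 2 against 52.6 FPKM in the highest catgut 1 library (1.91-fold, and 1.22-fold without that replicate). Sparc, a collagen-binding protein, had a p under 0.05 (1.38-fold, edgeR p = 0.0451, exact permutation p = 0.143), which held in 4 of 12 fits without 1 library. The part that tendon in the sampled tissue had in these differences was not tested.

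All 8 nerve and Schwann cell markers tested had a positive fold change (median 0.51, or 0.21 without catgut 2 replicate 2) with 0 called, and their sum was 10.0 to 63.5 FPKM against 26.4 to 123 FPKM, the highest again in catgut 2 replicate 2. Adipocyte markers had a median of 0.39 with 0 of 10 called and sums of 396 to 764 against 501 to 789 FPKM, and fibroblast markers a median of 0.40 with 0 of 8 called. Macrophage markers were at sums of 41.1 to 76.6 against 28.5 to 101 FPKM with a median fold change of 0.02, and 0 of 10 were called. Neutrophil, lymphocyte, mast cell, erythroid, endothelial, smooth muscle, keratinocyte and kidney lists held 0 called genes, with Vwf, an endothelial gene, at a p under 0.05 (log2 fold change 0.38), which it kept in 5 of the 12 fits without 1 library and lost in both limma fits, the exact permutation test and the fit over all 4 groups. Hepatocyte transcripts were near absent, with sums of 0.605 to 2.97 against 1.41 to 4.06 FPKM over 11 genes, and the intestinal genes Lgals4 and Apoa4 were at 0 in all 12 libraries. The 8 muscle fibre markers had a median of -0.20 and sums of 66422 to 92232 against 68244 to 75927 FPKM.

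**Figure D4:**
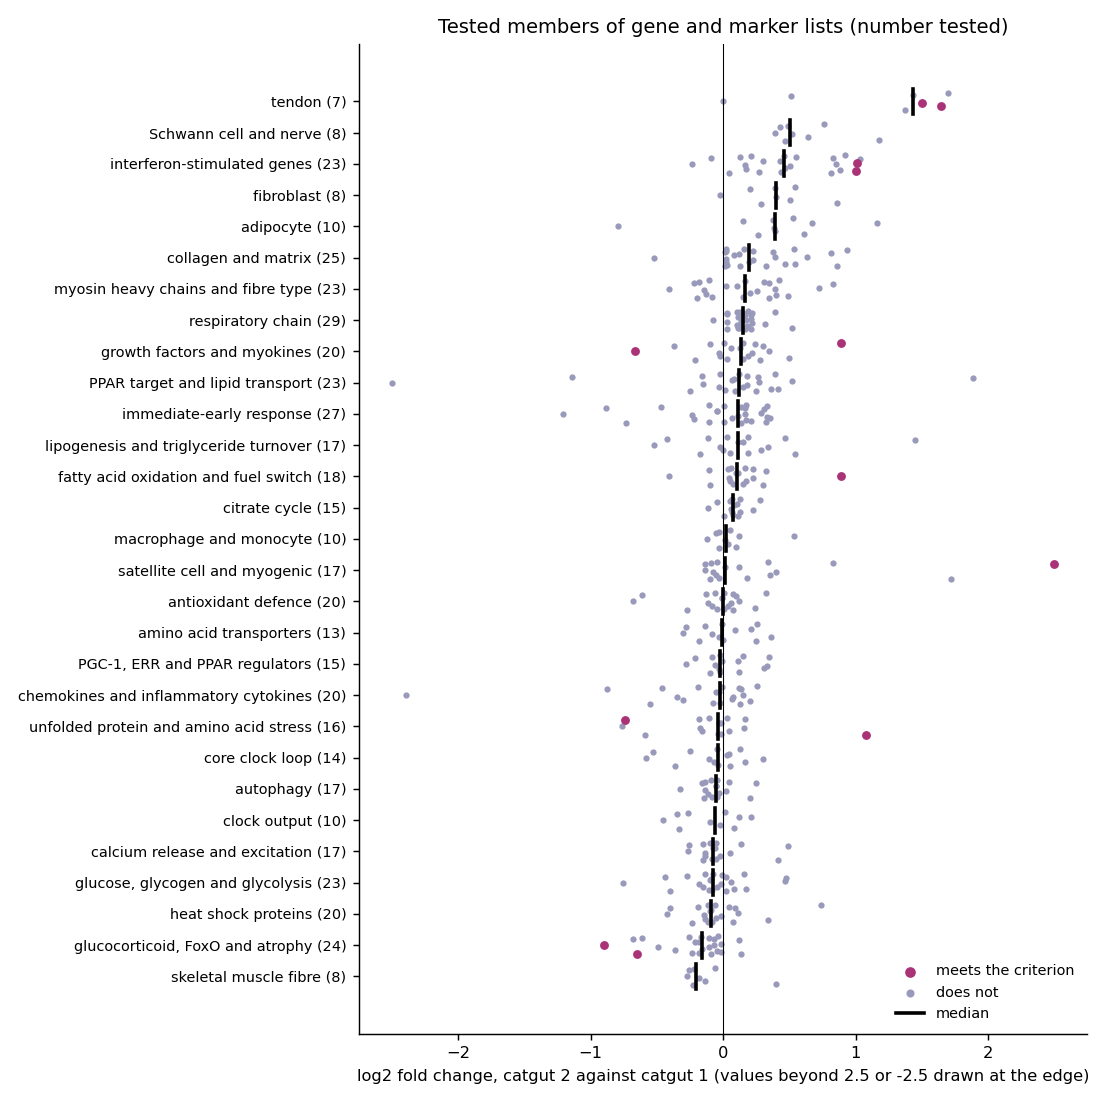
Log2 fold change of every tested member (points) of 23 gene lists and 6 marker lists, with the list's median as a bar and members that met the criterion enlarged. Tendon markers have the highest median (1.43) and interferon-stimulated genes the highest of the gene lists (0.46), while atrophy genes lie mostly below 0.

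Interferon-stimulated genes, which cells switch on in response to interferon or viral RNA, were the gene list with the highest median. Of 23 tested members 21 had a positive and 2 a negative fold change, with a median of 0.46. By the criterion 2 were higher (0.9% of all genes), and 4 were higher at a p under 0.05 in edgeR's test (1.87% of all genes). Usp18, which removes the ubiquitin-like protein Isg15 and restrains interferon signalling, was at 0.573, 1.02 and 1.96 FPKM against 0.976, 2.27 and 3.28 FPKM. Of the catgut 2 libraries, 5 lay above every catgut 1 library, and the level was 2.02-fold higher (interval 1.2 to 3.4, edgeR p = 0.0121, exact permutation p = 0.0195). Irf7, the factor that amplifies the interferon response, was at 2.32, 3.58 and 7.03 FPKM against 3.25, 6.46 and 17.1 FPKM (2-fold, interval 1.04 to 3.86, edgeR p = 0.0398, exact permutation p = 0.136). Isg15 and Mx2, an antiviral GTPase, were at 1.76 and 2.05 times the catgut 1 level with p-values of 0.105 and 0.0584.

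The call of these genes depended on single libraries. Without catgut 2 replicate 4 the number meeting the criterion was 9 of 23, without catgut 1 replicate 2 it was 8, without catgut 1 replicate 6 it was 5 and without catgut 2 replicate 6 it was 4. It was 1 without catgut 1 replicates 1, 3, 4 or 5 or catgut 2 replicates 1 or 3, and 0 in a fit over all 4 groups. The summed level was 74.5, 126 and 155 FPKM in catgut group 1 and 85.2, 166 and 271 FPKM in catgut group 2, with the lowest value of each group in its replicate 4. Irf7 alone kept a p under 0.05 in 6 of 12 such fits and Usp18 in all 12, and both lost it in the fit over all 4 groups. In the untrained control group Irf7 was at 4.80, 6.59 and 177 FPKM. The summed level of the list was 89.3, 167 and 231 FPKM in the treadmill group and 128, 159 and 1021 FPKM in the control group. Its median was thus lowest in catgut group 1, while that of catgut group 2 lay near those of the treadmill and control groups.

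Interferon-induced factors bind an element that holds 2 copies of GAAA with 2 bases of any kind between them. Searched on both strands in 250 bases before to 50 bases after the start, this pattern occurred in 3.92% of 33469 rat promoters of RefSeq (GRCr8). Of the 23 tested members 16 had a promoter entry and 11 of these held the pattern, which describes the list and not a site in use. The promoters of Irf7 and Gbp2 are printed because these members had a p under 0.05 and held the pattern, which is in capitals. That of Irf7 lies at chr1:205799974-205800273 on the minus strand, and that of Gbp2, a guanylate-binding protein of host defence, at chr2:234005477-234005776 on the plus strand. The match begins 69 bases before the start of Irf7 and 31 bases before that of Gbp2.
Irf7: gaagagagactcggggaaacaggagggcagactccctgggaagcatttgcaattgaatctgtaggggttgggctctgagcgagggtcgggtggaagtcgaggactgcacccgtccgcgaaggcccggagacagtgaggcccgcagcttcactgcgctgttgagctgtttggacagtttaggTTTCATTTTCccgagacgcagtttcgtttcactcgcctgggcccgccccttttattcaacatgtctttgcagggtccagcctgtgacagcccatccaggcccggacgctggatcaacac
Gbp2: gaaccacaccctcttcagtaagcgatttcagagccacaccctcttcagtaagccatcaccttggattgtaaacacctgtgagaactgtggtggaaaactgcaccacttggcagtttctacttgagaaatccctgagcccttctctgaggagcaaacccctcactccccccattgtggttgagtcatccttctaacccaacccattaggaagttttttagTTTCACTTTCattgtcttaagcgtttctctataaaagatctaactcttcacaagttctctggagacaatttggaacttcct
Gbp2 itself was at 1.09, 1.81 and 2.80 FPKM in catgut group 1 and 1.78, 3.02 and 3.42 FPKM in catgut group 2 (1.42-fold, edgeR p = 0.0474, exact permutation p = 0.0758), and Irf9, a subunit of the interferon-activated complex ISGF3, was 1.21-fold higher (edgeR p = 0.048, exact permutation p = 0.117). These calls held in 4 and 3 of the 12 fits without 1 library.

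**Figure D5:**
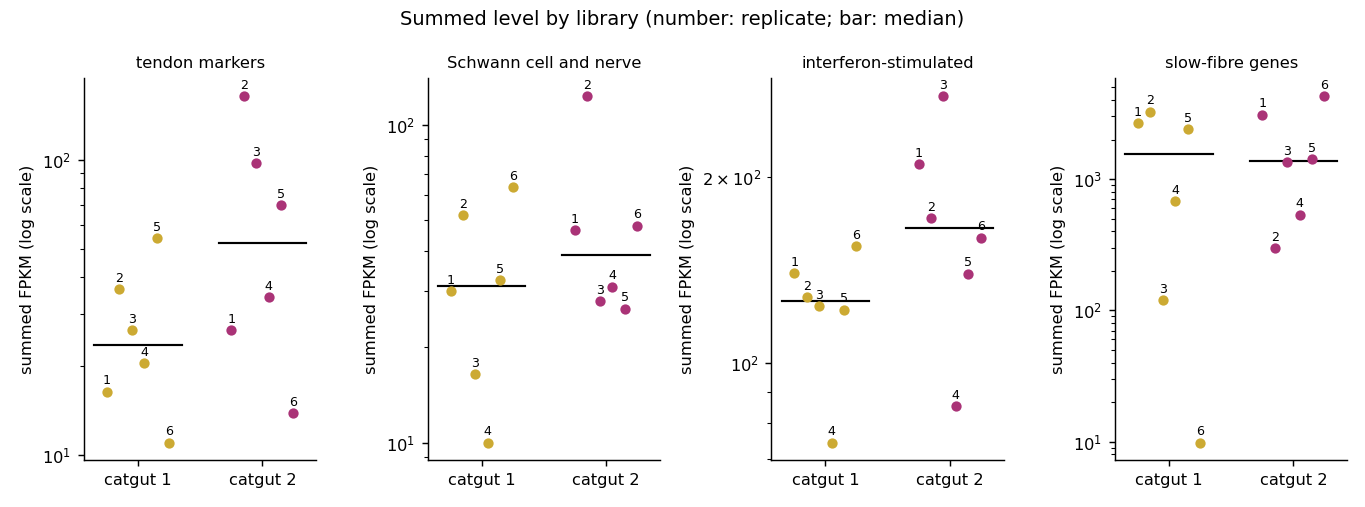
Summed FPKM (log scale) of the tendon, Schwann cell and nerve, interferon-stimulated and slow-fibre genes in each catgut library, numbered by replicate, with a median bar per group. The groups overlap in all 4 panels, with catgut 2 replicate 2 highest for tendon (165 FPKM) and nerve (123 FPKM) and catgut 1 replicate 6 lowest for slow-fibre genes (9.82 FPKM).

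Signals to vessels and growth showed 1 call in each direction among 20 tested growth factors and myokines. Apln, the apelin peptide released by muscle and endothelium, was at 0.309, 0.535 and 0.787 FPKM against 0.498, 0.933 and 1.97 FPKM (1.86-fold, interval 1.11 to 3.11, edgeR p = 0.0224, exact permutation p = 0.0455, lost without catgut 2 replicate 1), and Angpt2 was the lower gene. Igf2, a growth factor of fetal and regenerating muscle, was at 4.80, 5.14 and 5.75 FPKM against 5.54, 6.27 and 6.80 FPKM. For Igf2 4 catgut 2 libraries lay above every catgut 1 library, yet the difference was small (1.18-fold, interval 1.04 to 1.34, edgeR p = 0.0127, exact permutation p = 0.013), and its p was lost in the fit over all 4 groups. Among chemokines and inflammatory cytokines 0 of 20 tested genes met the criterion or had a p under 0.05, Ccl2, which attracts monocytes, being at medians of 1.88 and 1.70 FPKM (0.783-fold, interval 0.445 to 1.38). Of 13 amino acid transporters 0 were called, with a median of -0.01.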

How the data were processed

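Poly(A) mRNA of quadriceps from 24 rats was sequenced, and the extraction label speaks of an adipose type although the tissue label is quadriceps. The deposited table holds gene counts and FPKM for each library, made by the authors from their reads, and the submitters' processing notes name HISAT2 2.0 and StringTie 1.3.0, while the genome build is not given in the sources used here. Gene positions are those of the table. All sample columns were matched to a sample by name. In the deposited counts 23.8% of the values of the 12 catgut libraries were 0, and no 2 libraries were identical.

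The main test was edgeR 4.0.16 (R 4.3.3), quasi-likelihood, TMM scaling, on the counts of the 12 catgut libraries, for the 14772 of 21067 genes with a mean of at least 0.1 FPKM over the 24 libraries. Adjusted p-values follow Benjamini-Hochberg. Intervals are at 95% and come from this fit. Exact permutation tests were two-sided on log2(FPKM + 1) over 924 arrangements, with 0.00216 as the smallest p possible. limma 3.58.1 and DESeq2 1.42.0 served as alternatives. All scripts that test many genes were tested on simulated data. The limit of 12 counts covers counting error only.

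Genes were named if their adjusted p was under 0.05, if they were among the 10 higher and 10 lower genes by p that met the criterion, or the 5 higher and 5 lower of those with at least 5 FPKM, or if they were Slc27a2, Fabp1, Apoc3 or Lpl, or belonged to 1 of 40 lists (23 pathway and 17 marker lists, 603 genes). The genes, lists and comparison were chosen with earlier results of these data known. Figures were drawn with matplotlib 3.10.9. The rats are separate animals by the study's methods, and the labels give no batch or date.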

Additional observations from a re-analysis of the deposited data

Results flagged for a closer look

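Among 76 genes named in the text, 15 of 148 groups of 6 libraries (10.1%) held a value far from the others by Dixon's test. The chance rate of that test, about 1 in 20, holds for normally distributed values. Here the genes were chosen from these same data and every flagged value was the highest of its group, so no excess over chance is read from the share. Of the 15, 6 were in catgut 2 replicate 2. In that library Padi2 was at 87.7 FPKM (next 26.9), Pf4 at 15.3 (next 9.87), Ucp2 at 35.9 (next 14.1), Col1a2 at 166 (next 68.3), Fabp1 at 0.346 (next 0.137) and Slc27a2 at 0.273 FPKM (next 0.0355). Catgut 1 replicate 5 held the highest Hspa1b (1677 FPKM, next 546) and Dnajb1 (168 FPKM, next 64.8), and Mymx at 0.0845 FPKM with the others at 0. Catgut 1 replicate 2 held Padi2 at 14.5 FPKM (next 5.55) and the only Apoc3 above 0 among the catgut libraries (0.0978 FPKM). In catgut 1 replicate 3, Bhlhe41 was at 25.2 FPKM (next 14.8) and Lpal2 at 0.216 FPKM with the others at 0. In catgut 2 replicate 3, Irf9 was at 8.75 FPKM (next 6.44) and Ctdspl2 at 0.421 FPKM (next 0.209).

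Knop1 was set apart because its difference between the catgut groups passed the adjusted threshold (adjusted p = 0.00776, edgeR with Benjamini-Hochberg adjustment), with 6 of 6 catgut 2 libraries above all catgut 1 libraries, and the call was lost with both Knop1 loci added.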

How the results depend on the processing

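The criterion called 184 genes, against 578 (374 higher, 204 lower) without a filter on low values and 73 (49 higher, 24 lower) at a mean of at least 1 FPKM, and 170 to 271 without 1 library. Without catgut 2 replicate 2 60.0% of calls were higher, against 72.3% with it. At an unadjusted p under 0.05 there were 482 genes, 863 without the filter, and 368 to 826 without 1 library, 826 without catgut 1 replicate 5 and 779 without catgut 2 replicate 4. The number at an adjusted p under 0.05 was 8 in DESeq2 and 2 in limma with either pseudocount. It was 0 in edgeR at a mean of at least 1 FPKM (365 unadjusted), over all 4 groups (490) and with counts divided by 4 (503), and 0 in the exact permutation test (473). Without 1 library it was 0 (without catgut 2 replicate 3) to 2 (without catgut 1 replicate 5). Genes bounded within 1.5-fold numbered 7808, against 12562 in limma with log2(FPKM + 1), and 7207 to 7628 without 1 library.

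With the replicate number as a block 188 genes met the criterion (145 higher, 43 lower), 491 had an unadjusted and 0 an adjusted p under 0.05 in edgeR. The numbers did not pair the samples, since correlations of same-numbered deviations ran from -0.256 to 0.181 and 1 of 6 was highest with its own number. With the Y-linked level as covariate 180 genes met the criterion (131 higher, 49 lower), 153 of them shared with the 184. Mical2, Angpt2, Cebpd and Ucp2 lost their calls under it, and Ppp1r3c, Jsrp1, Irf9 and Gbp2 their p under 0.05.

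For 76 genes over 1809 settings, 1603 kept direction and side of the threshold, 162 fell short of it, 20 passed it and 24, in 10 genes and none at a p under 0.05, turned sign. Slc27a2 turned with the Y-linked level as covariate (log2 fold change 0.84). Without 1 library the log2 fold changes of the 10 ran from -0.26 to 0.36 for Fabp1, -2.36 to 0.35 for Slc27a2, -0.024 to 0.42 for Fos, -0.23 to 0.080 for Pdk4, -0.46 to 0.53 for Myh7, -0.38 to 0.55 for Dnajb1, -0.00041 to 0.46 for Arc, -0.11 to 0.81 for Cox7a1, -0.69 to 0.17 for Hspa1b and -0.032 to 0.24 for Tsc22d3. The within-group minus between-group correlation ran from -0.00102 to 0.000102 without 1 library. For 40 lists over 960 settings the count of called genes stayed within 1.5 times the reported one in 847 and moved in 113. Where calls moved with a setting, the cause was not tested. With 1 sequenced fragment at about 4 counts, genes under 1 FPKM rest on few fragments.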

Other observations

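Some genes were at 0 in several libraries and abundant in others. Of the 14772 genes tested, 161 (1.09%) had at least 2 of the 12 libraries at 0 and at least 2 above 100 counts, and of the 184 genes called 4 (2.17%) did. An example chosen after its values were seen is LOC108348062 (chromosome 6, 108745895 to 108756130), which was at 0 in all 6 catgut 1 libraries and in catgut 2 replicates 1, 2 and 6, but at 42.9, 52.6 and 44.0 FPKM in catgut 2 replicates 3, 4 and 5 (edgeR unadjusted p = 0.00563, adjusted p = 1 by Benjamini-Hochberg).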
